A study of Saccharomyces cerevisiae with 6 samples.

Results

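Mitochondrial ribosomal proteins were examined as a group of 65 nuclear genes in budding yeast, Saccharomyces cerevisiae. Untreated samples were compared with samples treated with zymolyase, an enzyme preparation that breaks down cell wall glucan. The genes were chosen by symbol alone, as every gene named MRPL, MRPS, RSM or MRP followed by a number, except MRP8. Each had 1 probe set annotated to it alone, and all 65 passed the filter on dim probe sets, out of 5349 genes (5394 probe sets) tested. By subunit, 37 encode proteins of the large and 28 of the small ribosomal subunit.

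Both groups were the strain labelled BY4743, given as a diploid with the his3Δ1, leu2Δ0, met15Δ0, ura3Δ0 and lys2Δ0 alleles, grown in the rich medium YPD for 2 days at 25 °C. The zymolyase group received 30 U/ml of the enzyme for 10 min at 37 °C, and the control group was left untreated. Each group held 3 samples, and each sample was hybridised to its own Affymetrix array after labelling of about 500 ng of total RNA from the 3′ end of the transcripts. The labels do not give the temperature of the control cells during that step, so the enzyme and a step to 37 °C cannot be told apart in any result. Whether the 3 samples of a group were grown as separate cultures is not stated, and each p-value is therefore set against the spread among these samples alone. Each array was scaled to the same trimmed mean, and a change in the total amount of messenger RNA per cell cannot be seen or told apart from a change in cell number.

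Mitochondria carry ribosomes of their own, which make the few proteins encoded in mitochondrial DNA, mostly subunits of the respiratory chain and of ATP synthase. Nearly all proteins of these ribosomes are encoded in the nucleus, made in the cytosol and imported, so that building a mitoribosome needs many separate messenger RNAs. In yeast the genes are known as a coregulated set, raised when cells respire and lowered on glucose, and Puf3, an RNA-binding protein, binds many of their transcripts. Some of the proteins have a counterpart in bacterial ribosomes, and others occur only in mitochondria.

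The labels call the strain an a/α diploid without URA3 and LEU2, and the arrays went against this. Control signals were 1802 ± 66.8 (SD, n = 3) for URA3 and 671 ± 38.5 for LEU2, well above background, and STE3, a gene of α cells, gave 3035 ± 89.7 while STE2, a gene of a cells, gave 48.4 ± 11.1. This held for both groups alike, and the strain is therefore named by its label. Arrays of one group correlated at 0.985 to 0.987 over log2 signals, and arrays of different groups at 0.938 to 0.947. Ratios of 3′ to 5′ signal were taken for 8 control genes with separate probe sets near both transcript ends. In 6 of them every zymolyase array had a higher ratio than every control array. For TDH1 the groups nearly touched, with at most 1.176 in the control and at least 1.179 with zymolyase. ACT1 had 2.04 ± 0.162 in the control and 2.44 ± 0.106 with zymolyase, and SRB4 went from between 6.15 and 6.78 to between 11.2 and 30.5. The part of this shift in the results below was not tested, and gene length, which moved with the change, is taken up further on.

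Most mitoribosomal genes were lower after zymolyase, in both subunits. Of the 65 genes, 47 fell, 11 rose and 7 did not pass the test, with a median log2 fold change of -0.40. A gene was called where limma's adjusted p, corrected by Benjamini-Hochberg over all 5394 probe sets, was under 0.05. Over all probe sets 38.9% fell and 32.6% rose (71.5% in either direction), against 72.3% and 16.9% of the mitoribosomal genes (89.2%), and the median over all genes was -0.08. The falls were moderate, from 0.17 to 0.98 on the log2 scale, and 2 of the 65 genes (3.08%) changed at least 2-fold, both upward, against 10.3% of all probe sets.

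The groups were well separated on the arrays. The median log2 signal of the 65 genes was 10.39, 10.41 and 10.47 on the control arrays and 9.92, 9.94 and 9.99 on the zymolyase arrays. All 3 zymolyase arrays lay below all 3 control arrays for 47 genes and above them for 11, where over all probe sets 39.9% lay below and 33.4% above (73.3% in either direction). These were not quite the genes that passed the test. MRPL31 and MRP10 passed with overlapping ranges, and MRP49 and MRP51 missed it with ranges that did not overlap. No member was near background: the lowest signal of any member on any array was 8.13 times the 99th percentile of the probe sets of a second species on that array. The coefficient of variation within a group had a median of 5.23% and reached 16.4%.

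**Figure D1:**
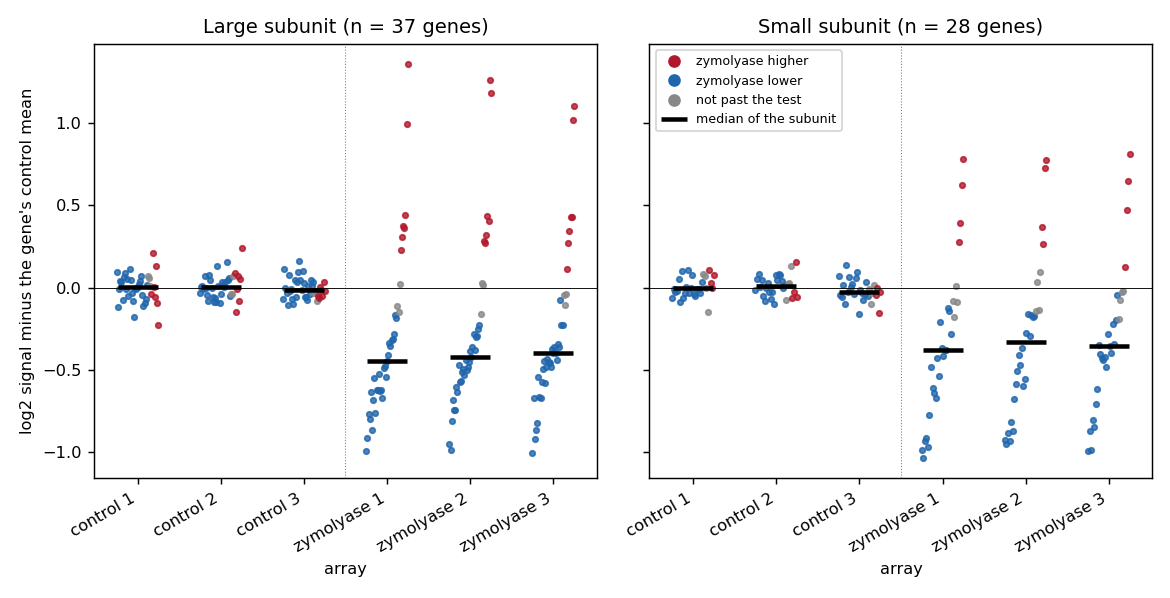
Log2 signal of each mitoribosomal gene on each of the 6 arrays, minus the gene's mean over the control arrays, for 37 large-subunit genes (left) and 28 small-subunit genes (right). Points are genes, coloured by their call, and black bars are the subunit's median. The medians lie near 0 on the control arrays and below it on all 3 zymolyase arrays, while a few genes stand clearly above.

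In the large subunit 27 of 37 genes fell, 7 rose and 3 did not pass, with a median log2 fold change of -0.41. MRPL20, a protein found only in mitochondrial ribosomes, had signals of 2204, 2019 and 1970 on the control arrays and 1035, 1069 and 1030 on the zymolyase arrays. Its groups were far apart, and its log2 fold change of -0.98 ± 0.06 (SE, limma adjusted p = 1.62e-08) was the largest fall among the 65 genes. MRPL49, counterpart of bacterial L21 (uniform name bL21), went from 1536, 1673 and 1801 to 887, 842 and 1046. It was the most variable of the leading falls, yet no zymolyase array reached the lowest control array (log2 fold change -0.86 ± 0.08).

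MRPL37, specific to mitochondria, was at 2074, 2105 and 2084 in the control and 1225, 1192 and 1106 with zymolyase. The control arrays hardly differed for this gene, and the change was -0.83 ± 0.06. MRPL6 (uL6), a conserved protein near the site where elongation factors bind in bacteria, went from 1996, 1931 and 1902 to 1117, 1209 and 1065, again without overlap (log2 fold change -0.78 ± 0.06). The brightest large-subunit probe set was that of MRPL36 (bL31), whose signals of 2788, 2808 and 2764 fell to 2007, 1994 and 1998. Its arrays agreed closely within each group, so that a fall of 0.48 on the log2 scale had an adjusted p of 1.58e-06. Signals of different probe sets are not on one scale and do not rank transcripts.

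Further falls above 0.5 on the log2 scale came from conserved and mitochondria-specific proteins alike. MRPL38 (uL14) had a log2 fold change of -0.73 ± 0.06, MRPL15 of -0.72 ± 0.08 and MRPL7 (uL5) of -0.62 ± 0.06. MRPL32 (bL32), whose cleavage by the mitochondrial m-AAA protease controls the assembly of the ribosome in yeast, fell from 2144 ± 84.0 to 1366 ± 39.2 (SD, n = 3). MRPL39 (bL33), MRPL44, MRPL33 (uL30), MRPL10 (uL15), MRPL27, MRPL51 and MRPL22 (uL22) were between -0.60 and -0.52. Smaller falls, between -0.48 and -0.21, were those of MRPL9 (uL3), MRPL50 (bL9), MRPL13, MRPL23 (uL13), MRPL35, MRPL1 (uL1), MRPL16 (uL16), MRPL25, MRPL31, MRPL17 and MRPL24 (bL28).

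The rises in the large subunit were led by MRP20 (uL23), with signals of 194, 268 and 224 in the control and 582, 514 and 487 with zymolyase. Every zymolyase array was well above the highest control array, and the log2 fold change of 1.22 ± 0.12 (adjusted p = 9.97e-07) was the largest of the whole set. This was also the dimmest large-subunit probe set. MRPL4 (uL29) rose from 294, 326 and 322 to 626, 751 and 636, with every zymolyase array well above every control array (log2 fold change 1.09 ± 0.09, adjusted p = 1.85e-07). In bacterial ribosomes the counterparts of MRP20 and MRPL4 sit side by side at the exit of the tunnel through which the new protein chain leaves.

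MRPL3, which resembles RNase III enzymes, went from 760, 658 and 670 to 943, 921 and 937, and MRPL19 (uL11) from 756, 827 and 780 to 1011, 1067 and 1059. Neither gene had overlapping groups, and they changed by 0.43 ± 0.07 and 0.41 ± 0.06 on the log2 scale. MRPL11 (uL10), MRPL8 (bL17) and MRPL28 rose by less, with 0.35 ± 0.06, 0.29 ± 0.08 and 0.21 ± 0.07. MRPL11 had 669, 664 and 669 in the control, so that even this small rise, to 865, 834 and 848, was clear of the replicate spread. The call of MRPL28 was lost without control replicate 3 (adjusted p = 0.055), without zymolyase replicate 2 (0.0667) and with median centring (0.0508). The 3 genes that did not pass were MRP49, MRP7 (bL27), a protein at the catalytic centre in bacteria, and MRPL40 (uL24), at -0.11, -0.07 and 0.00 (adjusted p = 0.106, 0.336 and 0.991).

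**Figure D2:**
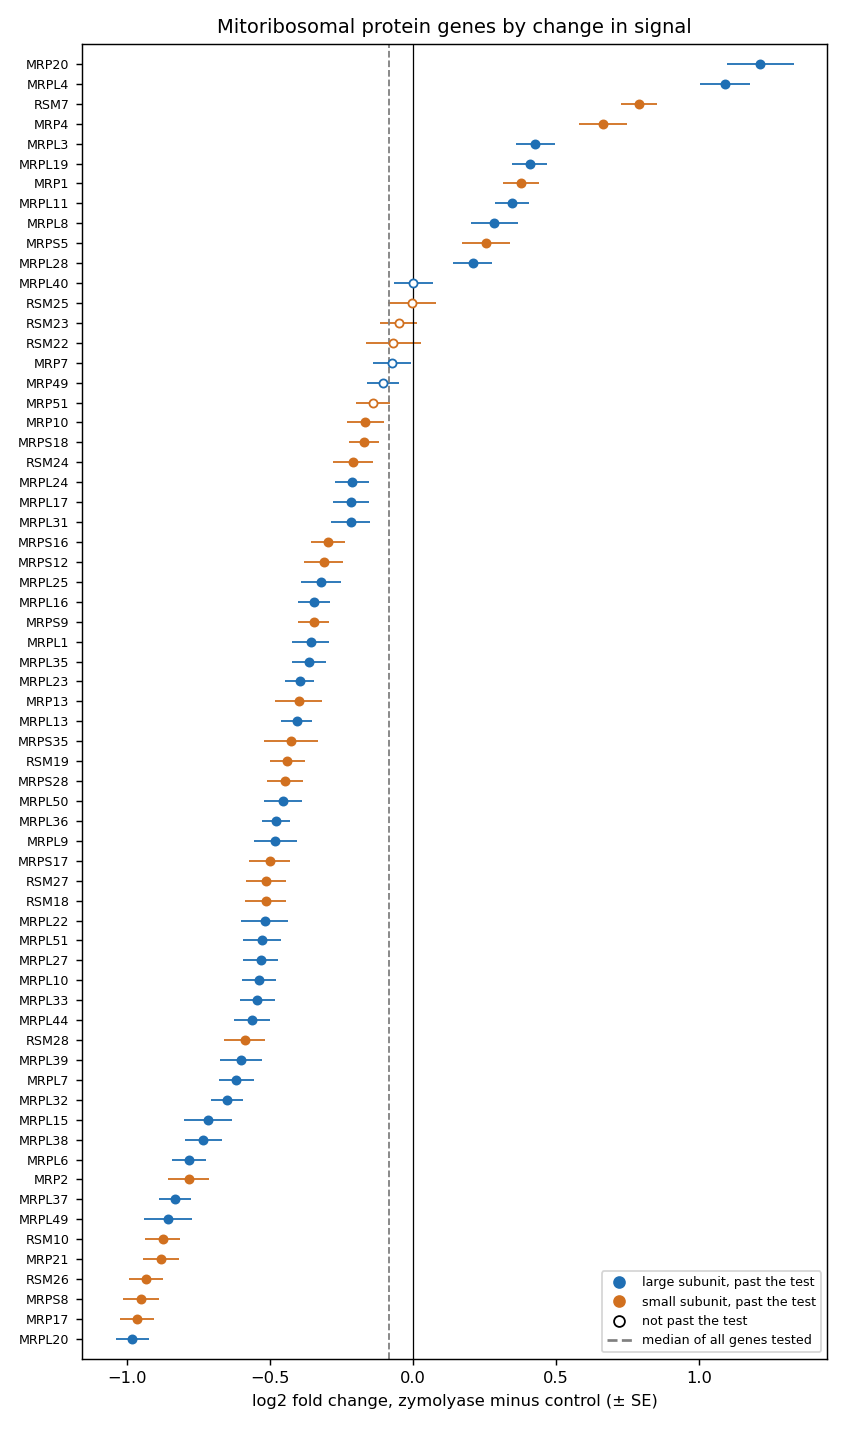
Log2 fold change (zymolyase minus control, ± SE, 3 arrays per group) of each of the 65 mitoribosomal genes, in order of size, with blue for the large and orange for the small subunit. Filled points passed the limma test, open points did not, and the dashed line is the median of all genes tested (-0.08). The genes run from -0.98 for MRPL20 to 1.22 for MRP20, and the small subunit runs from -0.97 for MRP17 to 0.79 for RSM7.

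The small subunit changed in much the same proportions: of 28 genes, 20 fell, 4 rose and 4 did not pass, with a median log2 fold change of -0.37. MRP17 (bS6) had signals of 1667, 1726 and 1832 in the control and 880, 918 and 876 with zymolyase. The zymolyase arrays were close to each other and far below the control (log2 fold change -0.97 ± 0.06, adjusted p = 1.74e-08). MRPS8 (uS8) went from 1606, 1681 and 1568 to 789, 839 and 885, and RSM26, which resembles superoxide dismutases, from 1687, 1817 and 1651 to 899, 930 and 869. Both had groups far apart, at -0.95 ± 0.06 and -0.93 ± 0.06 on the log2 scale.

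MRP21 (bS21) was at 916, 932 and 938 in the control and 494, 486 and 533 with zymolyase, a change of -0.88 ± 0.06 with little spread in the control. RSM10 (uS10) fell from 3680 ± 220 to 2005 ± 113, and MRP2 (uS14), which like RSM10 belongs to the head of the small subunit, from 1759 ± 152 to 1020 ± 58.3 (SD, n = 3). RSM28, known in yeast from a suppressor of a defect in COX2 translation, was at -0.59 ± 0.07. RSM18 (bS18), RSM27 and MRPS17 (uS17) had changes between -0.52 and -0.50. MRPS12 (uS12), the counterpart of a protein of the bacterial decoding centre, had the brightest probe set, with 4584, 5034 and 4642 in the control and 3648, 4256 and 3612 with zymolyase. Its groups did not overlap, though the change was small (-0.31 ± 0.07, adjusted p = 0.00119).

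The remaining falls, between -0.45 and -0.17, were those of MRPS28 (uS15), RSM19 (uS19), MRPS35, MRP13, MRPS9 (uS9), MRPS16 (bS16), RSM24, MRPS18 (uS11) and MRP10. MRP10, a small protein with paired cysteines that enters mitochondria through the Mia40 pathway, had the weakest call (adjusted p = 0.0356). That call was lost without control replicate 1 (adjusted p = 0.0978), control replicate 2 (0.086), zymolyase replicate 1 (0.167) or zymolyase replicate 2 (0.0782), and where the spread was modelled without the intensity trend (0.0905). RSM24 lost its call without control replicate 2 (adjusted p = 0.0513) and without zymolyase replicate 3 (0.0654), and MRPL31 of the large subunit without zymolyase replicate 2 (0.0551) and without the intensity trend (0.0533). All 3 calls were also lost with the gene length trend removed, as described further on.

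RSM7 (uS7) led the rises of the small subunit, with 607, 554 and 566 in the control and 989, 988 and 1011 with zymolyase. The zymolyase arrays were nearly equal, and the log2 fold change was 0.79 ± 0.06 (adjusted p = 1.72e-07). MRP4 (uS2) rose from 411, 458 and 370 to 635, 680 and 644 (log2 fold change 0.67 ± 0.08), and MRP1, another relative of superoxide dismutases, from 1162, 1119 and 1137 to 1499, 1370 and 1581 (0.38 ± 0.06). RSM26 and MRP1, which share that resemblance, thus went in opposite directions. MRPS5 (uS5) had 472, 420 and 425 against 531, 566 and 479, groups that nearly touched, and its call (0.26 ± 0.08, adjusted p = 0.0147) was lost without control replicate 2 (0.0534) and without zymolyase replicate 2 (0.07).

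Of the 4 small-subunit genes that did not pass, RSM22, which resembles methyltransferases, had the dimmest probe set. Its signals were 286, 277 and 255 in the control and 241, 280 and 259 with zymolyase, so the groups overlapped (adjusted p = 0.533). RSM23, the relative of human DAP3, and RSM25 were at -0.05 ± 0.07 (adjusted p = 0.511) and, near 0, at -0.0031 ± 0.08 (0.976) on the log2 scale. MRP51, which acts with the leaders of COX2 and COX3 messages in yeast, was at -0.14 ± 0.06 and just missed the threshold (adjusted p = 0.0532). It passed in 7 of the 18 alternative settings, with adjusted p between 0.0115 and 0.0488.

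**Figure D3:**
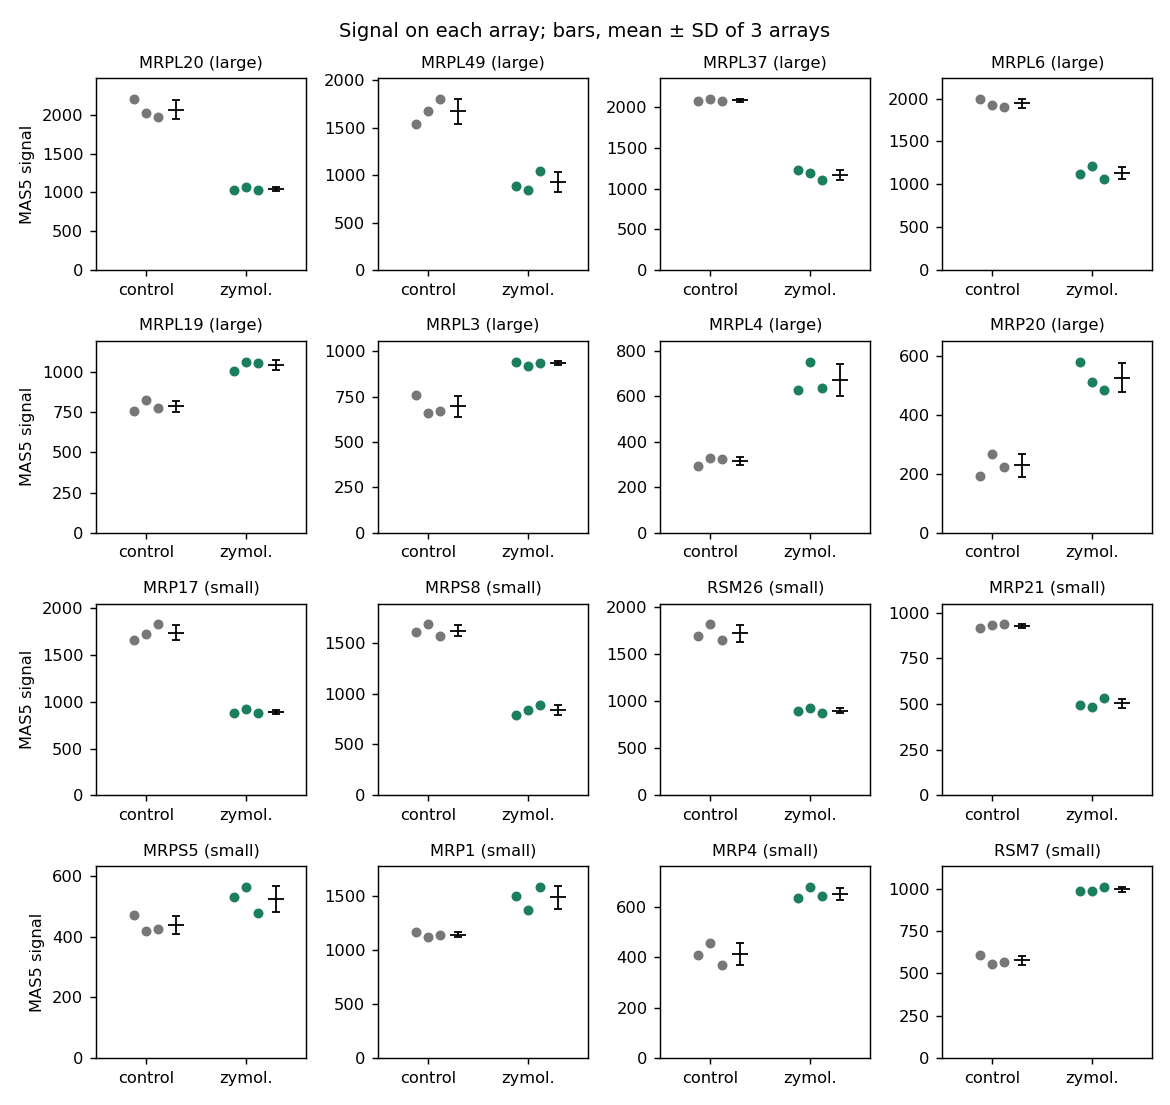
MAS5 signal on each array for the 4 largest called falls and the 4 largest called rises of each subunit, on axes that start at 0. Points are single arrays, and bars are the mean ± SD of 3 arrays. In all 16 genes the control and zymolyase arrays do not overlap, and the narrowest gap is that of MRPS5 (472 against 479).

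Proteins with a bacterial counterpart and proteins specific to mitochondria gave similar values. Of 40 genes of the first kind 29 fell (72.5%), 8 rose (20%) and 3 did not pass (median log2 fold change -0.44). Of 24 of the second kind 18 fell (75%), 3 rose (12.5%) and 3 did not pass (median -0.38). Over all probe sets 38.9% fell and 32.6% rose. With the gene length trend removed, as described further on, 21 and 13 were lower and 8 and 5 higher, against 40.1% and 28.8%. The medians were then -0.16 and -0.20. RSM22 was put in neither kind. The 4 genes with the largest rises, MRP20, MRPL4, RSM7 and MRP4, all have bacterial counterparts, and 3 of the 5 largest falls, MRP17, MRPS8 and MRP21, have them too. The difference between the kinds was not tested.

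Placed by where their counterparts sit in the bacterial ribosome, a grouping made after the values were seen, neighbours in the ribosome went in different directions at the tunnel exit and in the stalk. Of the 4 conserved proteins that ring the tunnel exit, MRP20 and MRPL4 rose, MRPL22 fell (-0.52 ± 0.08) and MRPL40 did not pass. In the stalk that recruits elongation factors, MRPL11 and MRPL19 rose, whereas MNP1 (bL12), a mitoribosomal protein outside the 65 by its name, fell from 3734 ± 218 to 1773 ± 33.8 (SD, n = 3; log2 fold change -1.07, adjusted p = 5.62e-09). In the head of the small subunit 5 of 6 measured genes fell, RSM10, MRP2, SWS2, RSM19 and MRPS9, and RSM7 rose. In its body 4 of 6 genes fell, MRPS8, MRPS17, MRPS12 and MRPS16, MRPS5 rose and NAM9 did not pass. The 5 platform genes, MRP17, MRP21, RSM18, MRPS28 and MRPS18, fell. With the length trend removed MRPS18 of the platform (0.11), MRPS12 (0.014) and MRPS16 (0.018) of the body and RSM19 of the head (-0.14) were not called. These counts stand against 38.9% lower and 32.6% higher over all probe sets and are too small to be read against them. MRPS12 and RSM19, the only members that are direct neighbours in the RefSeq gene order, both fell, by 0.31 and 0.44 on the log2 scale. Neither was called with the length trend removed.

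The change went with gene length, among the mitoribosomal genes as among all genes. Their median coding length was 714 nt, against 1248 nt over all genes tested, as the RefSeq table of assembly R64 gives it with introns included. Over all probe sets the median log2 fold change was -0.40 for genes of 51 to 768 nt, -0.22 for 771 to 1245 nt, 0.05 for 1248 to 1908 nt and 0.26 for 1911 nt or more. In the shortest of these classes 63.8% of all probe sets fell, and 31 of the 37 mitoribosomal genes of that size did (83.8%), with a median of -0.51. In the next class 50% of all probe sets fell, and 16 of 26 mitoribosomal genes did (61.5%), with a median of -0.28. Both genes longer than that, RSM23 and RSM22, did not pass.

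Spearman's rho between log2 fold change and length was 0.40 across the 65 genes and 0.41 across all 5394 probe sets. These genes share the same 6 arrays, and the values describe these arrays only. With the length trend of each array removed by a local regression, 35 mitoribosomal genes were lower and 13 higher, against 40.1% and 28.8% of all probe sets. The median was then -0.18, and -0.11 over all genes. Of the 47 falls 34 were still called lower, and all 11 rises were still called higher. The 13 falls no longer called were those of MRPL16, MRPL17, MRPL23, MRPL24, MRPL25, MRPL31 and MRPL50 in the large subunit and MRP10, MRPS12, MRPS16, MRPS18, RSM19 and RSM24 in the small. Their log2 fold changes were then between -0.14 for RSM19 (adjusted p = 0.0503) and 0.14 for MRP10 (0.0509). MRPL20, MRP17, MRPS8, RSM26, MRP21 and RSM10 kept log2 fold changes of -0.68, -0.65, -0.63, -0.72, -0.57 and -0.57, and MRP20, MRPL4 and RSM7 had 1.43, 1.21 and 1.04. MRP49 and RSM25, uncalled before, were then higher, both at 0.21 (adjusted p = 0.00471 and 0.033), and RSM22 was lower at -0.31 (0.0115).

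**Figure D4:**
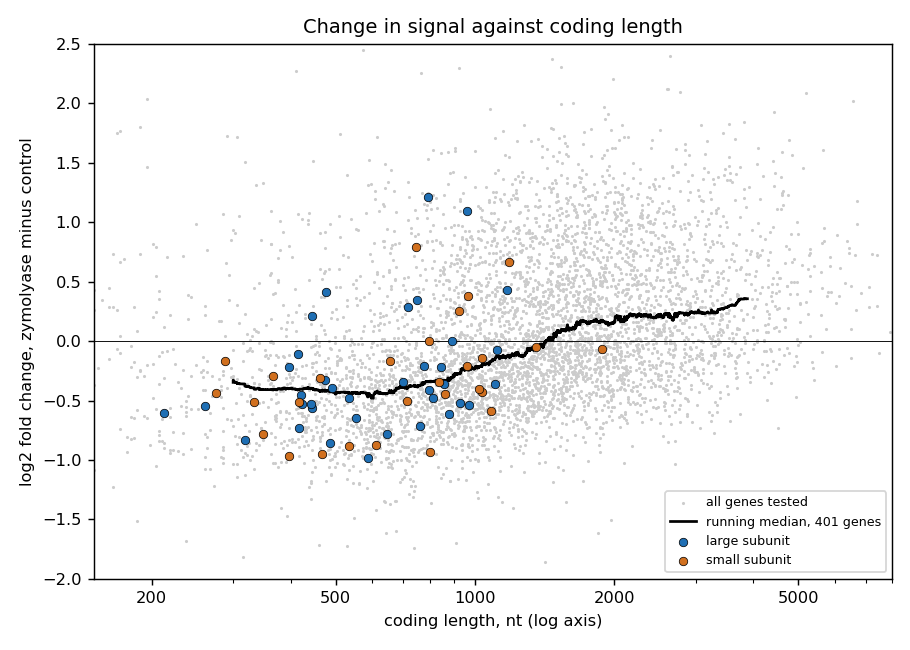
Log2 fold change (zymolyase minus control) against gene length on a log axis for all genes tested (grey), with the 65 mitoribosomal genes in blue (large subunit) and orange (small subunit) and a running median in black. The axes leave out 68 genes. The running median climbs from below 0 for short genes to above 0 for long ones, and 63 of the 65 mitoribosomal genes lie at 1185 nt or less.

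Among the mitoribosomal genes the change also went with the signal of the probe set. Spearman's rho between log2 fold change and mean log2 signal was -0.45 over the 65 genes and -0.04 over all probe sets. Of the 37 members with a geometric mean signal of 1126 or more, 34 fell (91.9%) and 1, MRP1, rose (2.7%). All probe sets in that signal class had 47.4% lower and 35.3% higher. Of the 25 members between 479 and 1080, 13 fell (52%) and 8 rose (32%), nearer the 43.7% and 36.1% of that class. Of the 3 below that 2, MRP20 and MRPL4, rose and RSM22 did not pass, where the class had 39.3% lower and 32.6% higher. Longer members also had dimmer probe sets (rho -0.56, against -0.16 over all probe sets), and with the length trend removed the relation with signal had a rho of -0.27. With the trend of each array on signal removed instead, the counts were 48 lower and 11 higher, against 40.1% and 32% of all probe sets. With both trends removed they were 38 lower and 14 higher, against 39.7% and 29.1%.

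Mitoribosomal proteins that carry other names were counted apart. Of 13 such genes 12 were measured (no probe set was named for VAR1, the member encoded in mitochondrial DNA), and 5 fell, 3 rose and 4 did not pass, with a median log2 fold change of 0.01. The shares, 41.7% lower and 25% higher, were near those over all probe sets (38.9% and 32.6%), and with the length trend removed 4 were lower and 6 higher, with a median of 0.10. After MNP1 the largest changes were the rises of IMG1 (bL19) from 1221 ± 23.1 to 2240 ± 106 and of YML6 (uL4) from 314 ± 20.5 to 562 ± 25.4 (SD, n = 3; adjusted p = 2.55e-08 and 8.64e-07). Under all names together, 52 of 77 genes fell and 14 rose, with a median of -0.36. The difference between the differently named genes was not tested.

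Other parts of mitochondrial translation are given beside the same shares over all probe sets, 38.9% lower and 32.6% higher. Among 8 measured translation factors 3 fell (37.5%) and 2 rose (25%), near those shares, with a median log2 fold change of -0.09. The leading genes were GUF1 at -0.39 ± 0.08, the elongation factor gene MEF2 at 0.34 ± 0.09 and RRF1, the ribosome recycling factor, at -0.31 ± 0.08. With the length trend removed 3 factors were lower and 0 higher (median -0.17), as GUF1 was at -0.64, while MEF2 at 0.046 (adjusted p = 0.632) and RRF1 at -0.044 (0.657) were not called. Of 9 genes of ribosome assembly and rRNA modification 4 fell (44.4%) and 2 rose (22.2%), again near those shares (median -0.07), or 5 and 1 with the length trend removed (median -0.21). They were led by the GTPase gene MTG1 at -0.73 ± 0.09 and the rRNA methyltransferase gene MRM2 at -0.67 ± 0.08. Of 14 mitochondrial aminoacyl-tRNA synthetases, which are long genes with a median length of 1670 nt, 2 fell (14.3%) and 5 rose (35.7%), with a median of 0.09. With the length trend removed this turned to 5 lower and 4 higher, with a median of -0.11. The largest changes were those of NAM2 and MSR1, for leucine and arginine, at 1.14 ± 0.09 and 1.14 ± 0.11, and of DIA4 at 0.65 ± 0.11, and these stayed higher with the trend removed (0.82, 0.89 and 0.57).

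Of 19 translational activators and membrane tethers, which bring single mitochondrial messages or the ribosome to the inner membrane, 10 fell (52.6%) and 3 rose (15.8%), against 38.9% and 32.6% of all probe sets, with a median of -0.24. With the length trend removed 14 were lower and 3 higher, with a median of -0.42, against 40.1% and 28.8%. OXA1, the insertase that receives proteins from the mitoribosome, rose from 384 ± 47.1 to 898 ± 67.6, and CBS1, an activator of cytochrome b synthesis, fell from 293 ± 17.5 to 129 ± 18.3. MSS51, the activator for COX1, rose from 1040 ± 89.3 to 1955 ± 236 (SD, n = 3; adjusted p = 1.25e-07, 1.99e-06 and 1.08e-06 for the 3 genes). The remaining rise, of PET122, came from a dim probe set, at 25.5 ± 3.03 and 46.5 ± 16.8. Its ranges overlapped, its lowest signal was 1.01 times background, and it barely passed the limma test (adjusted p = 0.0496). The subunits of the mitochondrial RNA polymerase were split, with RPO41 at 0.59 ± 0.06 and MTF1 at -0.54 ± 0.09, or 0.18 and -0.46 with the length trend removed. PUF3 rose from 159 ± 10.9 to 284 ± 21.0 (log2 fold change 0.84 ± 0.11, adjusted p = 1.17e-05), or 0.53 with the length trend removed.

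The ribosomal proteins of the cytosol were the closest group to compare. Their median gene length was 771 nt, against 714 nt for the mitoribosomal genes, both with introns included. Of 127 cytosolic genes 88 fell (69.3%), 11 rose (8.66%) and 28 did not pass, against 38.9% lower and 32.6% higher over all probe sets. Their median log2 fold change was -0.30, against -0.40 for the mitoribosomal genes. With the length trend removed the median was -0.09 for the cytosolic genes, -0.18 for the mitoribosomal genes and -0.11 over all genes. Then 47 cytosolic genes were lower and 26 higher, against 40.1% and 28.8% of all probe sets. Lengths without introns were not used. The difference between these groups was not tested. The cytosolic genes had smaller rises at the upper end, reaching 0.84 against 1.22, and a larger fall at the lower end, reaching -1.16 against -0.98.

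**Figure D5:**
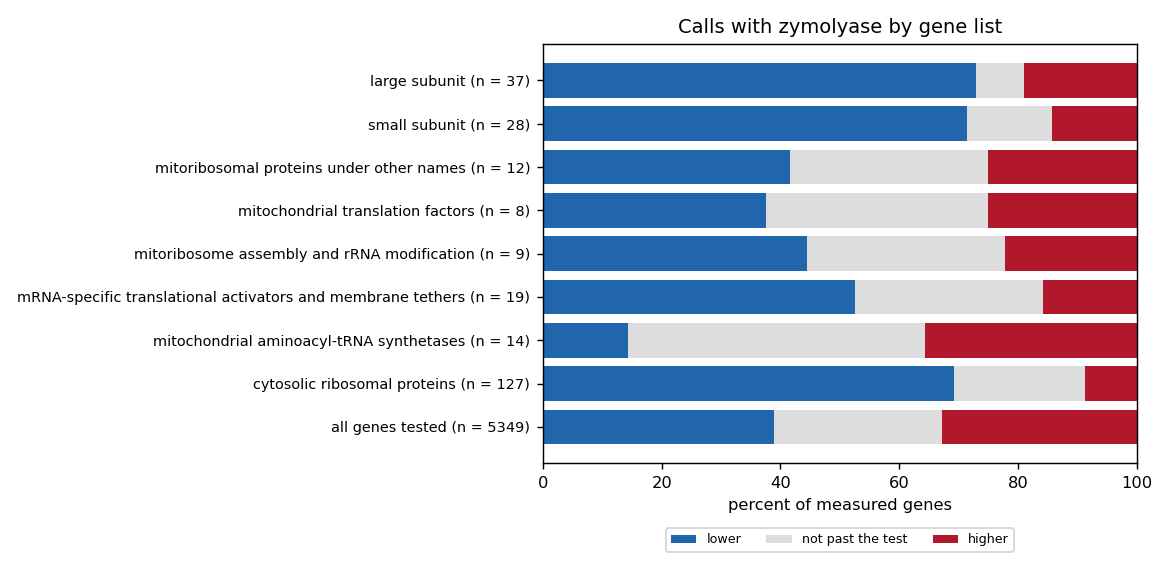
Percent of measured genes that were lower (blue), did not pass (grey) or were higher (red) with zymolyase, for the mitoribosomal subunits, other groups of mitochondrial translation, cytosolic ribosomal proteins and all genes tested. The number of genes stands beside each name. Both mitoribosomal subunits (73.0% and 71.4% lower) and the cytosolic ribosomal proteins (69.3%) have the largest blue shares, and the aminoacyl-tRNA synthetases the smallest (14.3%). The groups differ in gene length, and this order did not hold with the length trend removed, which is not drawn. Then 20 of 37 large-subunit, 15 of 28 small-subunit and 47 of 127 cytosolic genes were lower. So were 14 of 19 activators and tethers and 5 of 14 synthetases, against 40.1% of all probe sets.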

How the data were processed

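RNA from 3 control and 3 zymolyase samples was measured on 1 Affymetrix array each. Per the submitters' processing notes the authors obtained the deposited linear signal intensities with MAS5, and no version is given there. MAS5 scales an array by a single factor, and all 6 had a 2% trimmed mean from 500.41 to 500.43. The number of arrays limits the precision.

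Of 10928 probe sets, 5498 had exactly 1 S. cerevisiae gene when the platform annotation was matched to RefSeq assembly R64. Another 1747 annotated probe sets matched no gene there and were taken as those of the second species on the array, Schizosaccharomyces pombe. Their 90th percentile (10.1) was the filter on mean signal, and 104 probe sets were removed. The other 5394 were fitted as log2 signals with limma (version 3.58.1, R 4.3.3, lmFit and eBayes), the spread following an intensity trend, with Benjamini-Hochberg adjustment over all of them. The fit was tested on simulated arrays. Figures were drawn with matplotlib 3.10.9.

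Per-array values were given for the 4 largest called rises and falls of each subunit and for its brightest and dimmest probe set, and MRPL11 was added after its values were seen. From other lists at most 3 genes with the largest called changes, and PUF3, were named by rule. MNP1, SWS2 and NAM9 were also named for their place in the ribosome, and PET122 for its signal near background. The members, lists and rules were chosen with earlier results of these data known. The 18 alternatives covered an offset of 50, both other scalings (quantile, median), the dim filter (none, or the 99th percentile), the intensity trend, a replicate block, leaving out single arrays, the gene length trend (local regression on log2 length, span 0.5, degree 1) and the choice of probe sets. Removing the signal trend, alone or with that of length, was chosen after seeing the data. Sequences were not used here.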

Additional observations from a re-analysis of the deposited data

How the results depend on the processing

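Over 18 alternatives, 45 of the 65 mitoribosomal genes kept their direction and their side of the threshold in each, and 55 kept their direction. With the other dim filters and choices of probe sets each member's log2 fold change was by construction unchanged, and all 65 kept their call. Every count of genes higher or lower, for all members and for each subunit, stayed within 1.5 times its value. The median log2 fold change of all members, of the large and of the small subunit was -0.18, -0.18 and -0.18 with the gene length trend removed and -0.21, -0.21 and -0.20 with the length and signal trends removed. With median centring that of all members was -0.45 and that of the small subunit -0.42. Leaving out 1 array gave between 45 and 47 genes lower and 9 to 11 higher (large subunit 26 to 27 and 6 to 7, small subunit 19 to 20 and 3 to 4), with medians between -0.41 and -0.38, -0.42 and -0.39, and -0.37 and -0.34. Of all 5394 probe sets, between 1933 and 2044 were then lower and between 1671 and 1714 higher.

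Signs turned mainly with the length trend removed: MRPL25 0.0024, MRPS12 0.014, MRPS16 0.018, MRPL31 0.098, MRPL24 0.014, MRPS18 0.11, MRP10 0.14, MRP49 0.21 and RSM25 0.21. With length and signal trends removed they turned for MRPL31 0.049, MRPL24 0.016, MRPS18 0.070, MRP10 0.10, MRP49 0.16 and RSM25 0.24. MRPL40, near 0, was -0.0055 under quantile normalization, -0.046 with median centring, -0.018 with the signal trend removed and between -0.039 and 0.036 with single arrays left out, and RSM25 was then between -0.077 and 0.062. Beyond the construction of each alternative, the cause was not tested.

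The labels do not say what the shared replicate numbers mark. Deviations of same-numbered samples correlated at 0.05, 0.07 and 0.02, and those of differently numbered samples between -0.09 and 0.04. With 3 arrays per group these values cannot settle whether the samples were paired. With the replicate block 48 members were lower and 11 higher, as MRP51 passed (adjusted p = 0.0288). Of all 5394 probe sets, 2144 were lower and 1789 higher in that setting. Detection calls were not used here, but no member was near background.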
